A study of Mus musculus with 8 samples.

Results

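The genes described here are 8 components of the extrinsic death pathway, taken by name for their roles in it: the death receptors Fas, Tnfrsf10b and Tnfrsf1a, the death ligand Tnfsf10, the initiator caspase Casp8, its inhibitor Cflar, and the inhibitor of apoptosis (IAP) genes Xiap and Birc3. All 8 are among the 34478 genes of the deposited table. They were measured by RNA-seq in 4 primary cell lines of murine pancreatic ductal adenocarcinoma, numbered #1, #3, #5 and #10, which came from mice with the alleles Ptf1awt/Cre and, on both copies, Trp53loxP. In this model Cre is expressed from the Ptf1a locus of pancreatic progenitor and acinar cells, so that by design the lines of both groups share the loss of Trp53, a transcription factor that has Fas and Tnfrsf10b among its known targets. Each line was either kept with the solvent DMSO, as the control, or treated for 48 h with trametinib, a MEK inhibitor (MEKi), at the line's own IC50, so that the dose could differ between lines. With 1 library per line and treatment, 8 libraries in all, n is 4 lines, and p-values measure the spread between these libraries only.

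Death receptors are membrane proteins of the TNF receptor superfamily with an intracellular death domain. Fas binds Fas ligand, Tnfrsf10b (the murine TRAIL receptor, also called DR5) binds Tnfsf10 (TRAIL), and Tnfrsf1a (TNFR1) binds TNF. Ligand binding lets Fas and Tnfrsf10b recruit the adaptor Fadd and, through it, Casp8, which is activated on the receptor complex and cleaves the effector caspases. Cflar encodes cFLIP, a relative of Casp8 that pairs with it and limits its activation. Xiap binds and blocks active caspases, and Birc3 (cIAP2) is a ubiquitin ligase of the TNF receptor complex that steers the signal towards NF-kappaB and survival. In pancreatic carcinoma cells this pathway is known mainly for its resistance, as many lines carry death receptors without dying when the ligand is given.

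Libraries summed to between 30680091 and 36385719 normalized counts, from an estimated 29300000 to 45900000 reads, and the smallest signal that this depth can show, 3 reads, corresponded to 2.33 to 3.72 normalized counts. The MAPK feedback gene Dusp6 was lower with trametinib in 4 of 4 lines, by a fitted log2 change of -2.51 (SE 0.14, limma adjusted p = 0.00012). Keratins and Cdh1 were abundant in each library. Of the 7 tested genes of an epithelial and ductal list of 8, 5 were lower and 1 was higher with trametinib (25.6% and 27.3% of all genes tested), none of which passed without the block, and the sum of the list was 222234 to 350363 with DMSO and 114056 to 222637 with trametinib. The defining epithelial gene Epcam was at odds with the label: it was listed at 0 in all libraries except those of line #3, where it stood at 10.4 and 3.75 normalized counts. Of the acinar genes, Cpa1 was at 0 in each library and Ptf1a in all but trametinib-treated line #1 (1.96 normalized counts), whereas Cela1 stood at 24.8 to 247 with DMSO and 15.6 to 123 with trametinib, Bhlha15 at 27.9 or less and Cpb1 at 2.08 or less.

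The promoter windows of the 2 genes that rose, Fas and Birc3, are shown because they moved in the same direction and can be compared for motifs of the transcription factors that MAPK, interferon and NF-kappaB signaling act on. The windows hold the 250 bases before the annotated start on GRCm38.p6 in RefSeq and are written 5′ to 3′ on the strand of the gene. Capitals mark motif matches. The Fas window is chr19:34290409-34290658 on the plus strand, and the Birc3 window is chr9:7873171-7873420 on the minus strand.
Fas: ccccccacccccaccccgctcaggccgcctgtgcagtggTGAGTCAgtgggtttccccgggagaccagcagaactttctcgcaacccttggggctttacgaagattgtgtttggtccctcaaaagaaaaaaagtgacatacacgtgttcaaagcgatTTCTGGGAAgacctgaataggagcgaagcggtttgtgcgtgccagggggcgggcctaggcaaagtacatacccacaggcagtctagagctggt
Birc3: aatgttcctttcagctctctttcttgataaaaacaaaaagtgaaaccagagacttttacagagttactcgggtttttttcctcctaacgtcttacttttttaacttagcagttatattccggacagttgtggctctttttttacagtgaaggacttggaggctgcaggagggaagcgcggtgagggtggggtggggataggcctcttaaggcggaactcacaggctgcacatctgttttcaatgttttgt
Fas carried an AP-1 motif, TGANTCA, from -211 to -205 and a GAS motif of STAT factors, TTCNNNGAA, from -93 to -85, counted back from the start. The Birc3 window held neither. Both motifs read the same on either strand, and they did not overlap. AP-1 was present in 6.75% and GAS in 7.02% of all 32851 windows of this length. The interferon-stimulated response element, GAAANNGAAA, was found on neither strand of the 2 windows (2.98% of all windows), nor was the ETS motif CCGGAAGT (2.88%) or the NF-kappaB motif (7.25%). A window was found for 7 of the 8 genes, 9 windows in all, and not for Tnfrsf10b. In the other 5 genes with a window, a single match was found, a GAS motif in Tnfrsf1a from -244 to -236. These matches describe letters in a window, and binding was not measured.

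Trametinib changed 5 of the 7 genes that could be tested. Fas and Birc3 rose, Tnfrsf10b, Casp8 and Xiap fell, Tnfrsf1a and Cflar did not pass the test, and Tnfsf10 was below the filter, a mean of 10 normalized counts over the 8 libraries. Of all 15888 genes tested, 27.3% passed as higher and 25.6% as lower (limma with a block for the line, threshold 0.05 for the adjusted p), beside 2 (28.6%) and 3 (42.9%) of the 7 genes. The share that was higher lies near that of all genes, and with 7 genes nothing is read from the share that was lower. The median log2 fold change of the 7 genes was -0.27, beside 0.07 for all genes tested. Fold changes are on the scale of log2(normalized count + 1), which understates the changes of low genes.

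**Figure D1:**
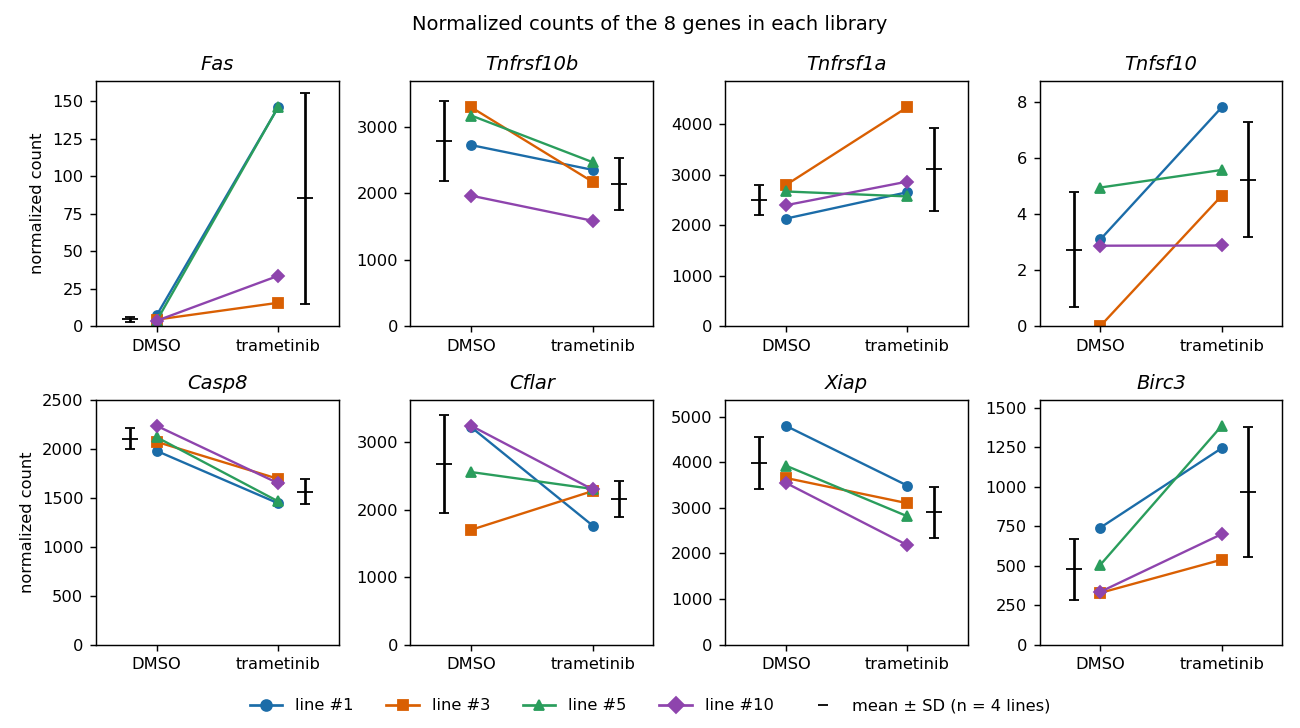
Normalized counts (linear axes from 0, a separate range for each gene) of the 8 genes in each library. Points joined by a line are the DMSO and trametinib libraries of a cell line, and bars show the mean ± SD of 4 lines. Fas goes from 7.10 or less in each DMSO library to 15.5 or more in each trametinib library, while Casp8 and Xiap fall in each line.

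Of the 3 death receptors Fas, Tnfrsf10b and Tnfrsf1a, Fas was the lowest in the untreated cells and the one with the largest fold change. Fas (ENSMUSG00000024778.13, chr19:34290666-34327772, plus strand, GRCm38) stood in the DMSO libraries at 7.10, 4.25, 3.41 and 3.51 normalized counts (lines #1, #3, #5 and #10), and in the trametinib libraries at 146, 15.5, 146 and 33.5. The groups did not overlap, and lines #1 and #5 were well above the other two after treatment. The mean rose from 4.57 ± 1.73 to 85.2 ± 70.5 (SD, n = 4), with a log2 fold change of 3.46 (95% confidence interval 2.09 to 4.82, limma adjusted p = 0.0028). The control mean is below the filter of 10, so that Fas was tested only through its treated libraries, and its count among the genes that rose supports nothing further. Without the filter its adjusted p was 0.0052. The values of the DMSO libraries rest on about 3 to 9 reads and those of the trametinib libraries on about 17 to 182 reads. Within line #5 the ratio was 42.8, with a 95% interval of 13.2 to 192, and within line #3 it was 3.64, with an interval of 1.25 to 15.7, where intervals cover counting error only. In line #1 the ratio was 20.5 (10.7 to 46.5) and in line #10 it was 9.54 (3.14 to 34.0).

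Tnfrsf10b (ENSMUSG00000022074.6, chr14:69767472-69784411, plus strand) went the other way and by less. It stood at 2722, 3291, 3167 and 1961 normalized counts with DMSO and at 2349, 2170, 2465 and 1583 with trametinib in lines #1, #3, #5 and #10. Each line was lower after treatment, but the groups overlapped because line #10 was low under both conditions. Its log2 fold change was -0.37 (95% confidence interval -0.59 to -0.15, limma adjusted p = 0.015), so that Tnfrsf10b fell by 22.7%. The call was lost without the block (adjusted p = 0.21), with libraries rescaled to equal totals (0.064), without line #5 (0.056) and without line #10 (0.051).

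Tnfrsf1a (ENSMUSG00000030341.17, chr6:125349362-125362484, plus strand) did not pass the test. Its normalized counts were 2128, 2793, 2666 and 2393 with DMSO and 2651, 4334, 2568 and 2861 with trametinib. Line #3 had the highest value with trametinib, line #5 was slightly lower than its control, and the groups overlapped. The fitted log2 fold change was 0.29 (95% confidence interval 0.0012 to 0.58, limma adjusted p = 0.083). It passed as higher with libraries rescaled to equal totals (adjusted p = 0.023), with quantile normalization (0.038) and without line #5 (0.044), and over all settings the adjusted p ranged from 0.023 to 0.28.

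Tnfsf10, the ligand of Tnfrsf10b (ENSMUSG00000039304.11, chr3:27317028-27342427, plus strand), was near the detection limit in each library. With DMSO it stood at 3.09, 0 (listed), 4.94 and 2.87 normalized counts, and at 7.80, 4.65, 5.57 and 2.87 with trametinib, for lines #1, #3, #5 and #10. This corresponds to about 0 to 4 reads and about 3 to 8 reads. The intervals of the within-line ratios in the lines with reads in both libraries included 1, for example 0.675 to 11.4 in line #1, so that a change was not detectable at this depth. Without the filter its adjusted p was 0.29 in limma.

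Casp8 fell, and it was lower in each line. Casp8 (ENSMUSG00000026029.14, chr1:58795374-58847503, plus strand) stood at 1976, 2069, 2116 and 2232 normalized counts with DMSO and at 1442, 1691, 1462 and 1647 with trametinib in lines #1, #3, #5 and #10. The groups did not overlap, and the spread between lines was small in both, with means of 2098 ± 106 and 1560 ± 127 (SD, n = 4). The log2 fold change of -0.43 (95% confidence interval -0.63 to -0.23, limma adjusted p = 0.0059) means that Casp8 fell by 25.7%. The call held in each of the 14 alternative settings.

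Cflar, the inhibitor that lies next to Casp8 on chromosome 1 (ENSMUSG00000026031.15, chr1:58711508-58758884, plus strand, 36.5 kb before Casp8), did not move uniformly. Its normalized counts were 3227, 1703, 2561 and 3248 with DMSO and 1767, 2279, 2310 and 2303 with trametinib. Line #3 started lowest and was higher after treatment, with a log2 change of 0.42, whereas lines #1, #5 and #10 had log2 changes of -0.87, -0.15 and -0.50. The pooled log2 fold change was -0.27 (95% confidence interval -0.75 to 0.20, limma adjusted p = 0.28). Single lines moved it in either direction: without line #3 it was -0.50 and passed as lower (adjusted p = 0.022), and without line #1 it was -0.07 (adjusted p = 0.77). The DMSO values ranged from 1703 to 3248, and the trametinib values from 1767 to 2310.

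Since Cflar acts by pairing with Casp8, the ratio of the pair was calculated within each library. The log2 ratio of Casp8 to Cflar was -0.71, 0.28, -0.28 and -0.54 with DMSO in lines #1, #3, #5 and #10, and -0.29, -0.43, -0.66 and -0.48 with trametinib. With trametinib Casp8 was thus below Cflar in each line, on a scale of normalized counts that is not corrected for transcript length. Per kilobase of the longest coding transcript the order was the reverse. There the trametinib means were 604 ± 49.1 for Casp8 and 329 ± 40.4 for Cflar (SD, n = 4). The DMSO means were 812 ± 41.2 and 409 ± 111. This order depends on the transcript taken, as coding transcripts ranged from 1628 to 2585 bases for Casp8 and from 1771 to 6572 for Cflar. The change of the ratio within a line does not depend on transcript length. The change was 0.41 in line #1, -0.71 in line #3, -0.38 in line #5 and 0.057 in line #10. Its mean was -0.16 ± 0.49 (SD, n = 4), less than the spread between lines (p = 0.75 in a two-sided exact permutation test that flips the signs of the lines, where 0.13 is the smallest p that 4 lines allow). Without line #3 the mean change was 0.029.

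**Figure D2:**
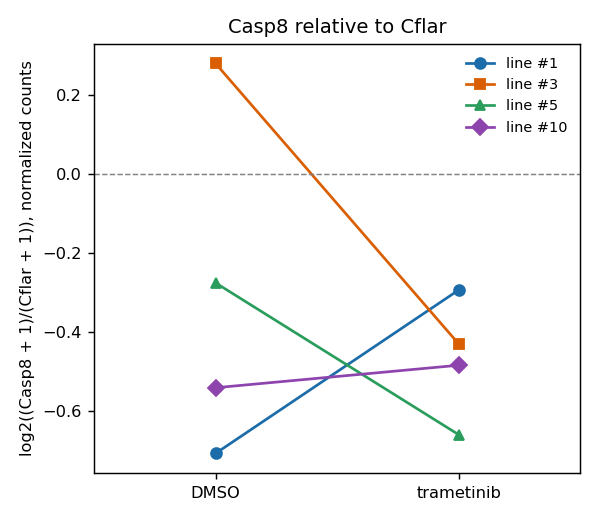
The log2 ratio of Casp8 to Cflar normalized counts (each with 1 added) in the DMSO and trametinib library of each cell line. Lines #3 and #5 go down, line #1 goes up and line #10 stays within 0.057, and the trametinib values lie between -0.66 and -0.29.

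The 2 IAP genes changed in opposite directions. Xiap (ENSMUSG00000025860.15, chrX:42059679-42109656, plus strand) stood at 4801, 3656, 3927 and 3548 normalized counts with DMSO and at 3489, 3102, 2816 and 2183 with trametinib in lines #1, #3, #5 and #10. The groups did not overlap, although the highest trametinib value, in line #1, came close to the lowest DMSO value, in line #10. The log2 fold change was -0.47 (95% confidence interval -0.70 to -0.24, limma adjusted p = 0.0070), so that Xiap fell by 27.8%. Without the block the adjusted p was 0.071.

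Birc3 (ENSMUSG00000032000.17, chr9:7848699-7873186, minus strand) was 741, 327, 505 and 334 normalized counts with DMSO and 1245, 538, 1387 and 700 with trametinib in lines #1, #3, #5 and #10. It rose in 4 of 4 lines, but the groups overlapped because the control of line #1 was above the treated libraries of lines #3 and #10. The log2 fold change was 1.00 (95% confidence interval 0.64 to 1.35, limma adjusted p = 0.0020), and without the block the adjusted p was 0.074. Line #5 had the largest change, 1.45 on the log2 scale, and line #3 the smallest, 0.72. Its paralog Birc2 (cIAP1) lies 11.6 kb away, and reads of such similar genes may be shared between them in the quantification. Birc2 stood at 853, 801, 838 and 727 normalized counts with DMSO and at 1169, 972, 1545 and 866 with trametinib, and rose by less, with a log2 fold change of 0.47 (limma, adjusted p = 0.023, 0.10 without the block). As with Birc3, its highest treated value was in line #5.

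**Figure D3:**
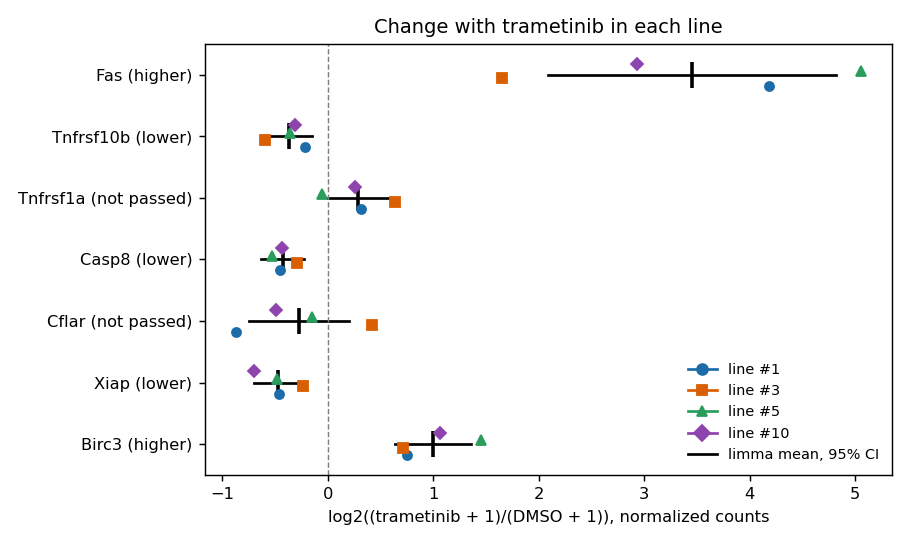
Log2 fold change of each tested gene (trametinib against DMSO, limma blocked by line) with its 95% confidence interval, and the log2 change of each of the 4 lines as points. Fas and Birc3 lie above 0 and Tnfrsf10b, Casp8 and Xiap below, while the points of Tnfrsf1a and Cflar lie on either side of 0.

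The groups did not overlap for 3 of the 7 tested genes, Fas, Casp8 and Xiap, beside 31.3% of all genes tested. Differences between the lines, over and above the treatment, were tested with limma's F-test over the 4 lines, which called 27.6% of all genes tested. Of the 7 genes it called 2, Birc3 (adjusted p = 0.019) and Tnfrsf10b (adjusted p = 0.033). Birc3 was higher in lines #1 and #5 than in lines #3 and #10 under both conditions, and Tnfrsf10b was lowest in line #10. Xiap did not pass (adjusted p = 0.082), nor did Tnfrsf1a (0.13), Fas (0.24), Cflar (0.53) or Casp8 (0.54). Each line has 2 libraries only, and the calls depended on single lines: without line #1 neither gene passed, without line #5 or line #10 only Birc3 passed, and without line #3 Xiap passed as well.

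Levels were compared between genes per kilobase of the longest coding transcript in GENCODE M21. The levels depend on this choice, as the coding transcripts of Xiap, for example, ranged from 487 to 6834 bases. With DMSO, Tnfrsf1a was the most abundant at 1157 ± 137 normalized counts per kb (SD, n = 4), followed by Tnfrsf10b at 876 ± 189 and Casp8 at 812 ± 41.2. Xiap followed at 583 ± 83.1, Cflar at 409 ± 111 and Birc3 at 164 ± 66.8. Neighbours in this order lay within their spread for Tnfrsf1a and Tnfrsf10b, Tnfrsf10b and Casp8, and Xiap and Cflar. Fas, at 3.08 ± 1.17, and Tnfsf10, at 0.546 ± 0.409, were far below the others. With trametinib Birc3, at 333 ± 142, lay within the spread of Cflar, at 329 ± 40.4, and Fas was still the lowest of the 3 receptors at 57.5 ± 47.6. The untreated lines thus held transcripts of both Tnfrsf10b and Tnfrsf1a at high levels next to few of Fas, and this order of the receptors remained after treatment. The exons of the 8 genes overlap those of no other annotated gene.

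For each tested gene, the gene most like it over the 8 libraries was found by Pearson's r of the log2 values among 15887 candidates. It was Tagln for Fas (r = 0.98), Tdp2 for Tnfrsf10b (0.98), Arhgap21 for Tnfrsf1a (0.99), Mmd for Casp8 (0.98), Stam for Cflar (0.92), Heatr5a for Xiap (0.98) and Filip1l for Birc3 (0.98). Tagln encodes transgelin, an actin-binding protein of contractile cells. The libraries share lines and treatments and the best of many candidates is bound to be high, so these values only describe the pattern.

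The third gene in the order for Fas was Acta2, smooth muscle actin (r = 0.98), which was singled out after its values were seen because it is the neighbour of Fas on chromosome 19. Acta2 (ENSMUSG00000035783.9, chr19:34241090-34255590, minus strand) lies 35.1 kb from Fas, and the genes are transcribed away from each other. Acta2 stood at 61.2, 15.5, 31.0 and 6.71 normalized counts with DMSO and at 12674, 336, 11819 and 384 with trametinib in lines #1, #3, #5 and #10. As for Fas, lines #1 and #5 were far above the others after treatment, and the groups did not overlap. For Acta2 the log2 fold change was 6.55 (limma, adjusted p = 0.00056), larger than that of Fas. Tagln, on another chromosome, was also far higher in treated lines #1 and #5 than in #3 and #10, at 8880 and 11538 against 112 and 182 normalized counts. For Stambpl1, the gene on the far side of Acta2, the log2 fold change was 0.10 (limma, adjusted p = 0.41). Stambpl1 was also named after its values were seen. The cause of the pattern that Fas shares with Acta2 and Tagln was not tested.

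**Figure D4:**
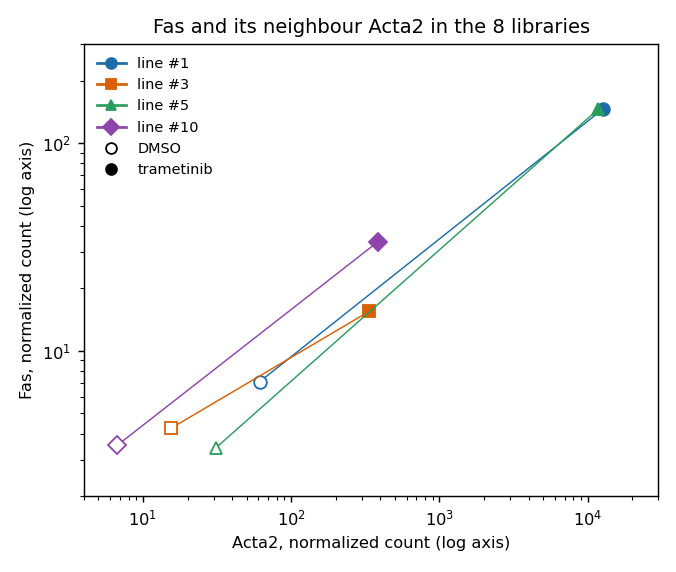
Fas against its neighbour Acta2 in the 8 libraries (normalized counts, log axes on both sides). Open symbols are DMSO, filled symbols trametinib, and lines join the libraries of a cell line. Treated lines #1 and #5 lie together at the top, at 146 for Fas and at 12674 and 11819 for Acta2.

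As Acta2 and Tagln are also genes of fibroblasts and muscle, markers of other cell types were read beside Fas. Of 8 fibroblast markers, 5 could be tested and 1, Col1a1, was higher with trametinib. Their summed level was 94.9 to 366 normalized counts with DMSO and 440 to 1258 with trametinib, and Col1a1 made up most of the sums with trametinib. The lowest sum with trametinib was in line #1, at 440 normalized counts, of which Col1a1 made up 360. Lum was at 0 in each library, and Col1a2 was at 4.29 normalized counts or less. Of the immune markers, 4 of the 7 in the table were tested and Csf1r was higher, with a summed level of 157 to 242 with DMSO and 239 to 519 with trametinib, and Cd3e was at 0.488 or less. Of the 4 endothelial markers, 3 were tested and Tek was higher, and the sum went from 30.9 to 54.6 with DMSO to 62.7 to 831 with trametinib. The control mean of Tek, 8.21, is below the filter, so that it was tested only through its treated libraries. In treated line #3 Tek made up 805 of the 831 normalized counts. Of the 5 acinar markers, 2 were tested and 1, Cela1, was lower. Of all genes tested, 27.3% were higher and 25.6% lower, and with so few markers nothing is read from the counts of these lists. Without the block Csf1r (limma adjusted p = 0.089) and Cela1 (0.52) did not pass. The part of these markers in the results was not tested, and in bulk libraries fewer cells of a type cannot be told apart from less RNA per cell.

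The other genes of the pathway were described from a list of 57 genes in 8 groups. Of these 45 could be tested, 18 were higher (40%) and 12 were lower (26.7%), beside the 27.3% and 25.6% of all genes tested. The same shares of all genes apply to the counts of each group below. Their median log2 fold change was 0.17, and 12 genes were below the filter. Of the higher genes, Tnfrsf11b, Casp12, Casp4 and Birc7 had control means below the filter and entered the test only through their treated libraries. The number higher fell to 10 without line #5, and without the block 4 were higher and 4 lower.

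Most death ligands were near the detection limit. Fasl, Tnf, Lta, Ltb and Tnfsf14 were below the filter. Fasl, the ligand of Fas, was listed at 3.10, 2.07, 1.24 and 0 normalized counts in the DMSO libraries, and at 0, 6.56, 0 and 0.960 in the trametinib libraries. Tnf, the ligand of Tnfrsf1a, was at 4.08 or less with DMSO and at 5.92 or less with trametinib. Of the 2 ligands tested, Tnfsf12 (TWEAK) rose and Tnfsf15 did not pass. Tnfsf12 went from 132, 132, 109 and 210 normalized counts to 234, 255, 234 and 333, with groups that did not overlap, a log2 fold change of 0.88 and an adjusted p of 0.0035 in limma.

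Among 7 further receptors tested, 2 rose and 3 fell, while Tnfrsf25, Ngfr, Edar and Eda2r were below the filter. Tnfrsf11b, which encodes osteoprotegerin, a secreted decoy that binds RANKL and TRAIL, rose as much as Fas. It stood at 12.4, 8.31, 7.45 and 7.67 normalized counts with DMSO and at 91.0, 261, 214 and 25.0 with trametinib, with groups that did not overlap. It had a fitted log2 fold change of 3.46 (limma, adjusted p = 0.0028, 0.0048 without the filter, which the control mean of 8.96 does not reach). Unlike Fas, which was lowest in line #3 after treatment, Tnfrsf11b was highest there. Tnfrsf22, a murine TRAIL receptor without a death domain, fell from 1601, 907, 1097 and 1278 to 691, 283, 631 and 562 normalized counts. Its log2 fold change was -1.22 (limma, adjusted p = 0.0011). Reads may be shared with its close relative Tnfrsf23, which had a log2 fold change of -1.08.

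Of 15 adaptors and enzymes of the receptor complex, all tested, 4 rose and 4 fell. Traf5, an adaptor of TNF receptors, had the largest rise. It went from 54.4, 58.4, 64.3 and 26.7 normalized counts to 119, 102, 320 and 74.2, with a log2 fold change of 1.41 (limma, adjusted p = 0.0060, 0.057 without the block). Tnfaip3 (A20), an inhibitor of NF-kappaB signaling and itself a known NF-kappaB target, rose from 4220, 839, 3911 and 2067 normalized counts to 6239, 2052, 7425 and 4339. Its log2 fold change was 0.96 (limma, adjusted p = 0.0013), but the groups overlapped, as the lines differed, and the adjusted p was 0.23 without the block. Fadd, the adaptor between Fas or Tnfrsf10b and Casp8, was 525, 417, 683 and 336 normalized counts with DMSO and 474, 228, 385 and 222 with trametinib. It fell in 4 of 4 lines, its log2 fold change being -0.61 (limma, adjusted p = 0.017, 0.19 without the block). Ripk1, the kinase of the Tnfrsf1a complex, did not pass, with a log2 fold change of -0.01 (95% confidence interval -0.24 to 0.22). Fadd and Ripk1 were singled out for their place in the pathway after their values were seen.

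The caspases did not move together. Casp6, an effector caspase, rose from 688, 379, 461 and 794 normalized counts with DMSO to 1195, 996, 830 and 1176 with trametinib in lines #1, #3, #5 and #10. Each treated library was above each control, and the log2 fold change was 0.90 (limma, adjusted p = 0.0029). Dffa, the inhibitor that effector caspases cleave to release the nuclease Dffb, rose by less, with a log2 fold change of 0.35 (limma, adjusted p = 0.040, 0.14 without the block). Dffb did not pass (log2 fold change -0.09, adjusted p = 0.71). Dffa and Dffb were named after their values were seen.

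Of 4 initiator and inflammatory caspases tested, 2 rose and 1 fell, and Casp1 and Casp14 were below the filter. Casp12 and Casp4, inflammatory caspases and close relatives between which reads may be shared, rose from low levels. Casp12 stood at 0 (listed), 16.5, 0.877 and 0 normalized counts in the DMSO libraries and at 36.7, 191, 6.15 and 5.71 with trametinib, with line #3 the highest under both conditions. Its log2 fold change of 3.34 (limma, adjusted p = 0.0037, 0.081 without the block) depends on the pseudocount and ranged from 2.07 to 5.15 over the settings. Casp4 went from 1.81, 17.1, 2.90 and 1.49 to 11.2, 43.0, 9.68 and 3.21 normalized counts. Its log2 fold change was 1.40 (limma, adjusted p = 0.026), and it did not pass in 5 settings, among them those without the block (0.26), without line #1 (0.096) and without line #5 (0.077). Without line #3 neither Casp12 nor Casp4 reached the filter, so that both could be tested only through that line.

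The apoptosome, the platform that activates Casp9 after release of cytochrome c, was represented by 2 genes. Cycs, cytochrome c, fell from 3499, 2799, 4162 and 2954 to 2109, 1076, 2236 and 1681 normalized counts, with a log2 fold change of -0.95 (limma, adjusted p = 0.0012). Apaf1, the scaffold, rose with a log2 fold change of 0.45 (limma, adjusted p = 0.024), from 1572, 1170, 1172 and 869 to 1584, 1726, 1882 and 1284 normalized counts. Line #1 barely changed in Apaf1, and the call was lost in 5 settings, among them without the block (0.13), without line #5 (0.099) and without line #10 (0.090).

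Of the other IAP genes, 7 were tested, 5 rose (71.4%) and 1 fell (14.3%), beside 27.3% and 25.6% of all genes tested. With 7 genes nothing is read from these shares. Birc5 (survivin), which also serves in cell division and is known as a gene of proliferating cells, fell in each line. It stood at 5340, 4808, 5938 and 5356 normalized counts with DMSO and at 2039, 632, 2354 and 1984 with trametinib, without overlap. The fitted log2 fold change was -1.77 (limma, adjusted p = 0.0020), with the strongest fall in line #3. Birc7 (livin) was at or under the level of 3 reads in each DMSO library, at 1.64, 0, 0 and 0 normalized counts, and at 14.5, 28.5, 12.7 and 41.5 with trametinib. Without line #10 it did not reach the filter. Against 3 reads of the control library, it was at least 3.42-fold higher in line #5 and at least 14.5-fold higher in line #10 (limma, adjusted p = 0.0015). Birc2, Naip2, Naip5 and Naip6 were also higher, Birc6 did not pass, and Naip1 was below the filter. Without the block Birc2 (limma adjusted p = 0.10), Naip2 (0.52), Naip5 (0.25) and Naip6 (0.15) did not pass. The Naip genes are near-identical copies, so that reads may be divided among them.

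Of 3 IAP antagonists, 1 rose and 1 fell. Xaf1, which encodes a XIAP-associated factor and is a known interferon target, rose in each line. It went from 26.5, 89.2, 23.7 and 69.7 to 88.6, 325, 65.2 and 228 normalized counts, and the log2 changes of the lines were alike, at 1.71, 1.85, 1.42 and 1.70. This gave a log2 fold change of 1.67 (limma, adjusted p = 0.00088). The groups overlapped, as the controls of lines #3 and #10 were above the treated library of line #5, and without the block the adjusted p was 0.076. Htra2, a mitochondrial protease that cleaves IAPs, fell from 2279, 3155, 3500 and 2755 to 1875, 1771, 2608 and 1740 normalized counts, with a log2 fold change of -0.55 (limma, adjusted p = 0.0064, 0.053 without the block). Diablo (SMAC), the antagonist that displaces Xiap from caspases, did not pass, with a log2 fold change of 0.03 (95% confidence interval -0.23 to 0.29).

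**Figure D5:**
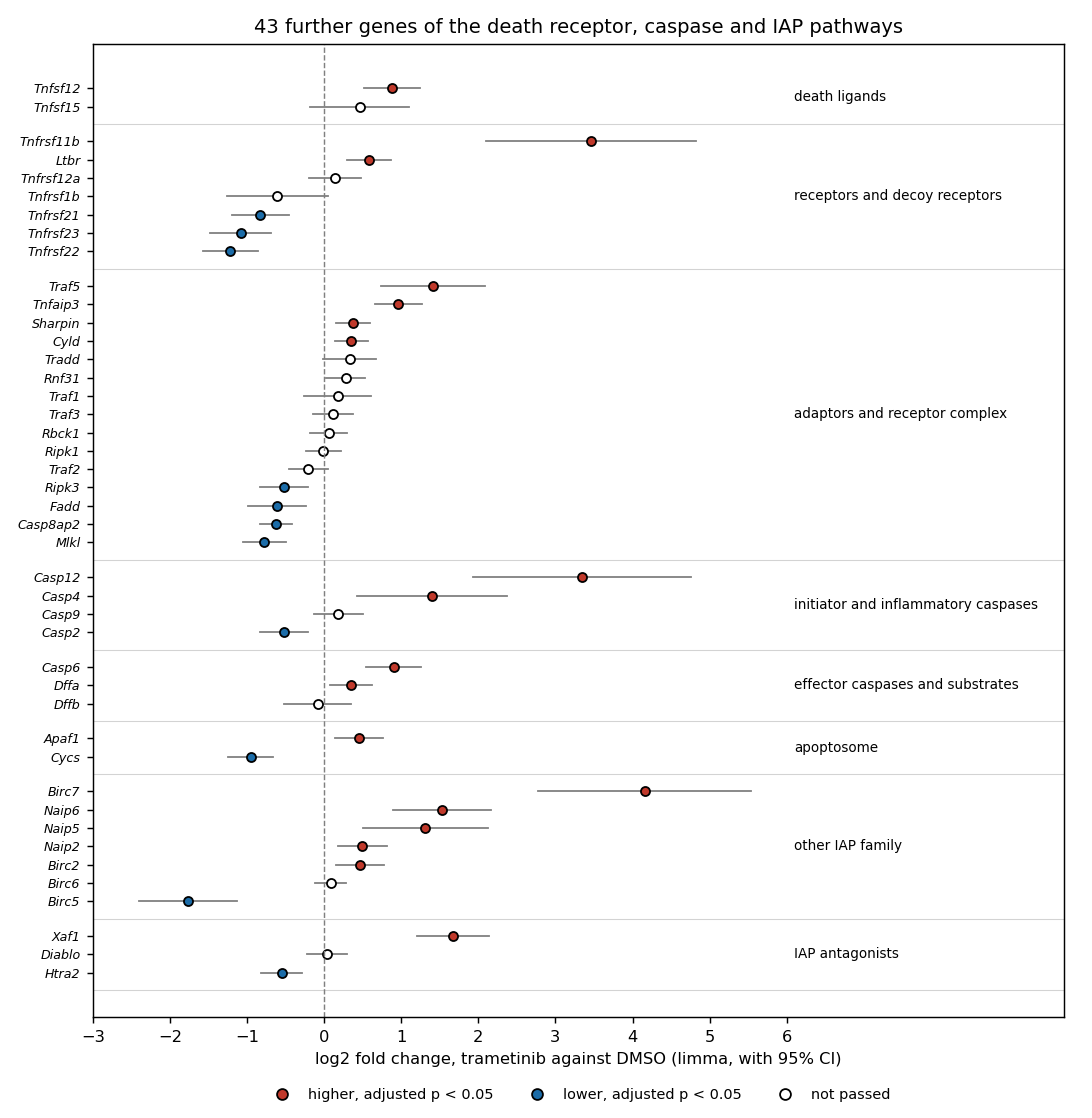
Log2 fold change (trametinib against DMSO, limma blocked by line) of 43 tested genes of the wider list with 95% confidence intervals, by group. Red marks an adjusted p under 0.05 as higher, blue as lower, and white points did not pass. In the other IAP family 5 of 7 genes are red (27.3% of all genes tested were higher), Birc6 lies near 0 and did not pass, and Birc5 is blue.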

How the data were processed

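The authors prepared stranded mRNA libraries and deposited a normalized count per gene and library, a signal scaled between libraries. The submitters' processing notes name CASAVA 2.17, Salmon 0.12, DESeq2 1.18 and mm10, without the role of each. Whole reads could not be recovered, so no count model was used. Reads per library were inferred from the spacing of the lowest values.

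Values were analysed as log2(value + 1) with limma 3.58.1 in R 4.3.3 (lmFit, eBayes with a mean-variance trend, cell line as a block) over 15888 genes (mean 10 or more), with Benjamini-Hochberg adjustment and a threshold of 0.05. The labels give both libraries of a line its number; their deviations from the treatment means correlated at 0.63 to 0.72. Positions are from GENCODE M21 on GRCm38. Plots used Python 3.11.15 and matplotlib 3.10.9.

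Alternatives were pseudocounts of 0.1 and 5, equal totals, quantile normalization, centring on the median, no filter, a filter at 50, no block, eBayes without trend or with robust estimation, and each line left out. Recovery of known changes by limma was tested on simulated data.

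The genes and lists were chosen with earlier results of these data known. Of each group of the wider list, the 2 called genes with the largest change are given in full; others are named for their place in the pathway or as falling below the filter. Some genes and alleles are not reported here.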

Additional observations from a re-analysis of the deposited data

Results flagged for a closer look

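In 70 groups of 4 values (the libraries of a treatment, or the changes of the 4 lines, for the 8 genes, 15 genes of the wider list and the Casp8 to Cflar ratio), 8 had a highest or lowest value that stood apart from the other 3 by Dixon's criterion, which chance gives in about 5% of groups, and groups of the same gene are not independent. Their causes were not tested.

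Line #3 accounted for 5 of them. With trametinib Tnfrsf1a was at 4334 normalized counts in line #3, against 2568 to 2861 in the others. Casp12 was at 16.5 with DMSO in line #3, against 0 to 0.877, and at 191 with trametinib, against 5.71 to 36.7. Casp4 was at 17.1 with DMSO in line #3, against 1.49 to 2.90. The log2 change of Birc5 was -2.93 in line #3, against -1.43 to -1.33.

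The others were in lines #1 and #5. With trametinib Cflar was at 1767 normalized counts in line #1, against 2279 to 2310. Birc7 was at 1.64 with DMSO in line #1 and at 0 in the others, which is below the level of 3 reads. With trametinib Htra2 was at 2608 in line #5, against 1740 to 1875.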

How the results depend on the processing

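For 22 genes (7 of the 8 and 15 of the wider list), the direction of the fold change held in each setting in which the gene could be tested, and the side of the threshold was the same as in the report in 276 cases, with a call lost in 21 and gained in 4. A filter at a mean of 50 left Casp12, Casp4 and Birc7 untested, and so did leaving out line #3 for Casp12 and Casp4 and line #10 for Birc7. Without the replicate block, 1 of the 8 genes was higher (Fas) and 1 lower (Casp8), and 4 genes of the wider list were higher and 4 lower. A filter at a mean of 50 removed Fas and left 1 gene higher. Leaving out each line in turn gave 10 to 18 higher genes of the wider list (10 without line #5) and 10 to 12 lower ones. The number of the 8 genes that differed between lines in limma's F-test was 1 without a filter and 0 with eBayes without trend (2 at an unadjusted p under 0.05). It was 0 to 3 when each line was left out, with 0 without line #1 (2 unadjusted), 1 without line #5 and 1 without line #10. The change of the Casp8 to Cflar ratio reversed to 0.029 without line #3, in a range of -0.35 to 0.029; that line had the largest change.

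Scaling moved the balance of all genes: of those called, 51.6% were higher, against 61.9% with libraries rescaled to equal totals (median log2 fold change 0.20), 47.2% with quantile normalization and 46.1% with centring on the median. Depth limits Fas with DMSO, Tnfsf10, Fasl, Tnf, Birc7, Casp4 and Casp12, which rest on few reads. The dose of each line, its own IC50, is not given in the sources used here.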
